A study of Mus musculus with 6 samples.

Results

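The kinesin motor family was followed in the RNA of cultured mouse CD8+ T cells, the killer cells of the adaptive immune response, which had been kept with or without AOA. Of the 11922 genes in the deposited count table, 35 had a symbol that begins with Kif followed by a digit or the letter c, and 34 of these passed the low-count filter. The mitotic motors, 12 in all, are Kif2c, Kif4, Kif11, Kif14, Kif15, Kif18a, Kif18b, Kif20a, Kif20b, Kif22, Kif23 and Kifc1, and the other 23 rows are referred to as the other kinesins. All 12 mitotic kinesins were higher in AOA-treated cells, between 3.35-fold for Kif20b and 5.69-fold for Kif11. Of the 22 other kinesins that could be tested, 11 were lower, 4 were higher and 7 were not called, where 26.8% of all tested genes were lower and 26.2% higher. The 11 include Kif1a and Kif17, which reached the low-count filter in the vehicle group alone, and of the 20 rows that reached it in both groups 9 were lower. Among these were Kif21b, which had the highest level per length of any kinesin in vehicle-treated cells, and the kinesin-2 subunits Kif3a, Kif3b and Kif3c. Kif1a had 177 counts over the 3 vehicle libraries and 1 over the 3 AOA libraries.

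Splenic CD8+ T cells of 3 C57BL6/J mice were stimulated for 72 hours with beads carrying antibodies to CD3 and CD28, then washed and grown for 4 more days. Recombinant human IL-2 was present at 100 units per ml in both phases, and for all 7 days the medium held either water (vehicle) or 0.25 mM AOA. AOA is aminooxyacetic acid, an inhibitor of enzymes that need the vitamin B6 cofactor PLP. Each donor mouse contributed 1 vehicle library and 1 AOA library, so that replicates 1, 2 and 3 of both groups carry the mouse number. The study's methods name both sexes and a minimum age for its animals as a whole, and the age and sex of each donor were not analysed here. The cells are a bulk population grown from spleen, so that in these values fewer cells of a type and less RNA per cell cannot be told apart.

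Kinesins are ATP-driven motor proteins that use microtubules as tracks. Interphase kinesins carry vesicles, organelles, RNA and protein complexes, mostly towards the microtubule plus end, and several are best known from neurons or cilia. Mitotic kinesins build the bipolar spindle, align and separate chromosomes and organise the midzone for cytokinesis. Their messenger RNAs, like those of many genes that act in cell division, are known to accumulate in G2 and M phase, and a CCAAT box combined with a cell cycle genes homology region (CHR) near the transcription start is a known arrangement in the promoters of such genes.

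RefSeq promoter windows on GRCm38.p6, 250 bases before to 50 bases after an annotated start, were matched for 27 of the 35 kinesin rows, 11 of them mitotic and 16 other. Both strands were searched for CCAAT, for the CHR as TTTGAA or TTTAAA, and for E2F words as TTTCCCGC, TTTGGCGC or TTTCGCGC, and no match to one of these motifs overlapped a match to another in a kinesin window. The stretches shown run from 100 bases before the start to 30 bases after it, 5′ to 3′ on the strand of the gene, with matches in capitals. They are shown because Kif11, Kif14, Kif18b and Kif23 hold a CCAAT and a CHR in this stretch, Kif20b holds a pair of adjoining CHR words, and Kif3c, a kinesin-2 motor that was lower in AOA-treated cells, holds none of the motifs. They are a selection, and stretches not shown differ. That of the mitotic Kif2c holds none of the motifs, and that of Kif3b, a kinesin-2 motor that was also lower, holds a CCAAT. Positions are chr19:37376282-37376411 on the plus strand for Kif11, chr1:136467748-136467877 on the plus strand for Kif14, chr11:102925095-102925224 on the minus strand for Kif18b, chr9:61946770-61946899 on the minus strand for Kif23, chr19:34922258-34922387 on the plus strand for Kif20b and chr12:3365032-3365161 on the plus strand for Kif3c.
Kif11: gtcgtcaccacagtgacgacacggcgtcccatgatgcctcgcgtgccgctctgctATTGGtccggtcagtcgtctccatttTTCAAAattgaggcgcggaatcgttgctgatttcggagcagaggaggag
Kif14: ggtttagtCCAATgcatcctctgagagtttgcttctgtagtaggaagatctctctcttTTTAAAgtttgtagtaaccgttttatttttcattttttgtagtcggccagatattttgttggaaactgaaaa
Kif18b: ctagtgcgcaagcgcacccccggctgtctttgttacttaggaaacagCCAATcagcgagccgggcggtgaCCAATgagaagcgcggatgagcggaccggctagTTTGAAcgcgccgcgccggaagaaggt
Kif23: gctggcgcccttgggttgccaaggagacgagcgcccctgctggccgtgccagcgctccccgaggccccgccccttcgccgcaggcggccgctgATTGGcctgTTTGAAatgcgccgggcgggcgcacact
Kif20b: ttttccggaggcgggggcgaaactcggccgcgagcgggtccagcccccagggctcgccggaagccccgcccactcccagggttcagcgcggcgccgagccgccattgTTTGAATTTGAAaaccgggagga
Kif3c: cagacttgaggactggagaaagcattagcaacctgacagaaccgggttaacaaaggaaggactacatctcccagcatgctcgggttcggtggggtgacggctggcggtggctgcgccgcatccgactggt

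A CHR word stood somewhere in the window of 10 of 11 mitotic kinesins (90.9%), of 2 of 16 other kinesins (12.5%) and of 22.5% of the 9438 tested genes with a window. Within 50 bases of the start, a distance chosen after the positions had been seen, it stood in 9 of 11 mitotic kinesins (81.8%), in 2 of 16 other kinesins and in 6.13% of all genes. The mitotic windows without a CHR word near the start were those of Kif2c, whose matches lay further upstream, and Kif18a, which had none. The other kinesins with a CHR word were Kif1a, in 1 of its 2 windows, and Kifc5b, a near-copy of Kifc1. CCAAT stood in 7 of 11 mitotic kinesins (63.6%), 6 of 16 other kinesins (37.5%) and 43.0% of all genes. The combination of CCAAT anywhere with a CHR near the start was met in 7 of 11 mitotic kinesins (63.6%; Kif4, Kif11, Kif14, Kif18b, Kif22, Kif23 and Kifc1), in 1 of 16 other kinesins (Kifc5b) and in 2.54% of all genes. E2F words were found in Kif15 and Kif18a, in 0 of 16 other kinesins and in 4.34% of all genes. These matches describe letters in a window and no binding was measured. The annotated start of the window lay 1547 bases inside the gene for Kif14, 3852 bases inside for Kif2c, 1668 bases inside for Kif3a and 19559 bases inside for the Kif1a window that holds the CHR word, so that a window there need not be the promoter used in these cells.

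**Figure D1:**
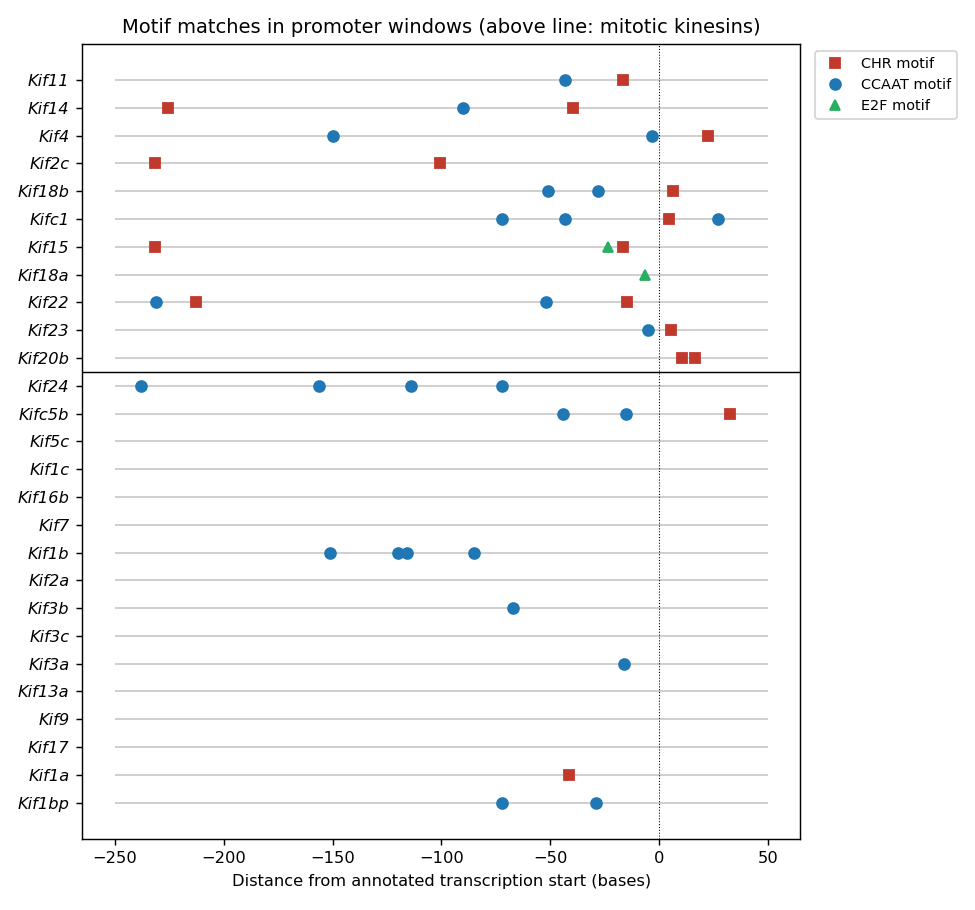
Each line is the promoter window of a kinesin, from 250 bases before to 50 bases after the annotated start (dotted line), with the 11 mitotic kinesins above the solid line and the 16 other kinesins below it. Squares mark CHR, circles CCAAT and triangles E2F matches on either strand, and matches of all windows of a gene are drawn on its line (Kif1a, Kif1b, Kif2a and Kif9 have 2). CHR squares lie within 50 bases of the start for 9 of 11 mitotic kinesins and for 2 of 16 other kinesins.

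Total counts per library ranged from 12881962 to 21997078, and replicates within a group were further apart than sampling noise allows. Levels are given in CPM, counts scaled to a common library total by way of TMM-normalised library sizes, and are divided by gene length in kilobases (RPKM) where different genes are compared. Differences are log2 fold changes of AOA over vehicle from edgeR's quasi-likelihood test, with their standard error (SE), and a gene is called where its p, adjusted by the Benjamini-Hochberg method over all 11759 tested genes, was under 0.05. The smallest p that exact permutation of 3 against 3 libraries allows is 0.1, so genes were not permuted one by one. CD8 T cell markers summed to 4262 to 4819 CPM with vehicle and 6057 to 6850 with AOA, with 6 of 7 in the table. Of these Cd8a, Cd8b1 and Thy1 were called higher, and Cd3d (604 CPM with vehicle and 552 with AOA), Cd3g (548 and 441) and Cd3e (417 and 347) were not called. CD4 T cell markers (4 of 4 in the table) summed to 158 to 210 CPM with vehicle and 33.0 to 54.3 with AOA, myeloid markers (5 of 7) to 111 to 166 and 62.4 to 76.6, B cell markers (4 of 6) to 12.6 to 16.6 and 22.6 to 30.7, and NK cell markers (3 of 5) to 145 to 308 and 128 to 213. Within these sums single markers moved further, for the myeloid marker Itgam fell from 45.4 to 1.21 CPM and the NK cell marker Klrb1c from 57.7 to 7.14 CPM, while Cst3 and Eomes, which made up most of the sums with AOA, were not called. Of the CD4 T cell markers Cd4, Zbtb7b and Cd40lg were called lower. Foxp3, at 13.3 CPM with vehicle and 17.1 with AOA, was not called. No marker in the table was at 0 in every library, none of the 6 erythroid markers was in the table, and the part of these other cells in the kinesin values was not tested.

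Every mitotic kinesin rose with AOA. All 12 were called higher in AOA-treated cells and 0 lower, where 26.2% of all tested genes were called higher, and their median log2 fold change was 2.20 against -0.02 over all genes. In all 12 the 3 AOA libraries lay above the 3 vehicle libraries, which held for 31.0% of all tested genes. The largest adjusted p among them was 0.000182, SEs ran from 0.13 to 0.24, and each had a larger log2 fold change than at least 95.4% of tested genes. With the mouse as a replicate block the largest adjusted p was 1.12e-05.

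The motors that set up the spindle rose as follows. Kif11, the kinesin-5 motor that slides antiparallel microtubules apart to make the spindle bipolar, stood at 98.8, 77.2 and 117 CPM in vehicle replicates 1 to 3 and at 561, 521 and 586 CPM in AOA replicates 1 to 3. Its mean thus went from 97.8 ± 20.1 to 556 ± 33.1 CPM (SD, n = 3), a log2 fold change of 2.51 (SE 0.18, adjusted p = 1.79e-05 by edgeR), and the lowest AOA library was far above the highest vehicle library. Kif15, a kinesin-12 motor that supports the bipolar spindle beside Kif11, measured 32.9, 42.9 and 44.8 CPM with vehicle and 159, 162 and 210 CPM with AOA, a log2 fold change of 2.13 (SE 0.17). Kifc1, a minus-end-directed kinesin-14 that gathers spindle poles, measured 22.7, 19.2 and 25.5 CPM with vehicle and 82.5, 97.3 and 122 CPM with AOA, a log2 fold change of 2.16 (SE 0.18). The spread within a group was small beside the distance between groups for each of these motors.

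The motors that act on chromosomes and on microtubule ends rose by similar amounts. Kif4 and Kif22 are chromokinesins, which bind chromosome arms. Kif4 was at 27.2, 20.9 and 35.9 CPM with vehicle and 127, 150 and 166 CPM with AOA (log2 fold change 2.40, SE 0.21). Kif22 was at 43.4, 32.8 and 50.6 CPM with vehicle and 148, 160 and 194 CPM with AOA (log2 fold change 1.98, SE 0.19). Kif2c, a kinesin-13 that takes microtubules apart at centromeres and corrects faulty attachments, was at 21.6, 20.8 and 28.3 CPM with vehicle and 98.1, 127 and 131 CPM with AOA (log2 fold change 2.33, SE 0.18). Kif18a and Kif18b are kinesin-8 motors that restrain the growth of spindle microtubules. Kif18a was at 10, 10.2 and 14.8 CPM with vehicle and 62.2, 44.9 and 46.6 CPM with AOA (log2 fold change 2.13, SE 0.21). Kif18b was at 22.9, 17.6 and 32.1 CPM with vehicle and 90.7, 116 and 138 CPM with AOA (log2 fold change 2.24, SE 0.24).

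The motors of the midzone and of cytokinesis rose as well. Kif23 is the motor of the centralspindlin complex, and its 43.3, 35.0 and 61.9 CPM with vehicle compared with 145, 160 and 191 CPM with AOA (log2 fold change 1.82, SE 0.22). Kif20a, which relocates the chromosomal passenger complex to the midzone, had 37.1, 39.7 and 52.7 CPM with vehicle and 201, 218 and 244 CPM with AOA (log2 fold change 2.35, SE 0.17). Kif20b, a kinesin-6 needed late in cytokinesis, had 34.4, 37.7 and 37.0 CPM with vehicle and 113, 117 and 135 CPM with AOA (log2 fold change 1.74, SE 0.13). Kif14, which works with citron kinase at the midbody, had 17.2, 13.4 and 22.2 CPM with vehicle and 87.2, 91.4 and 113 CPM with AOA (log2 fold change 2.46, SE 0.20). The groups did not overlap in any of these, and Kif20b had both the smallest change and the tightest vehicle values.

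**Figure D2:**
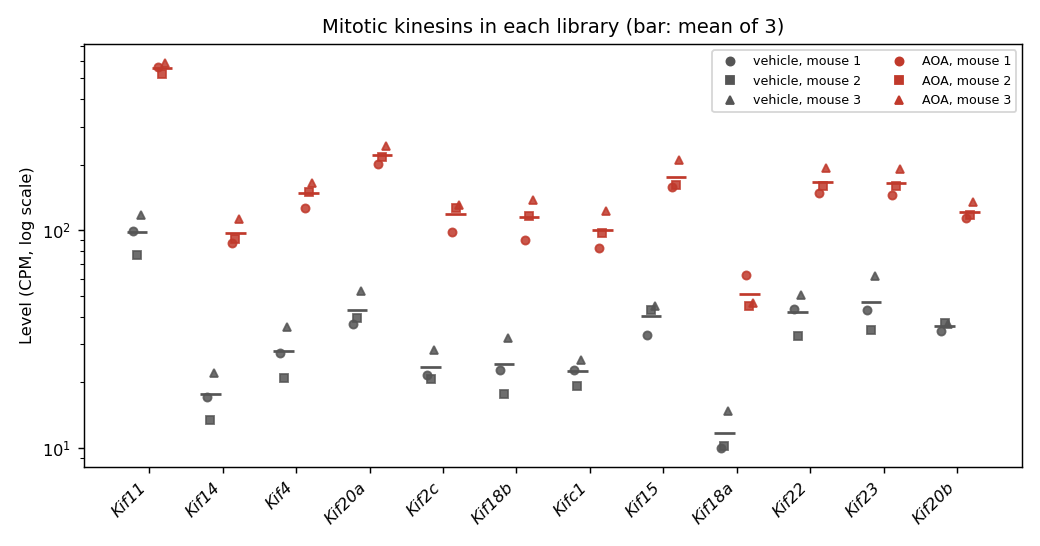
Level in CPM, on a log scale, of the 12 mitotic kinesins in each library, with vehicle in grey, AOA in red, a marker shape for each mouse and a bar at the mean of the 3 libraries. For each gene the 3 AOA libraries lie above the 3 vehicle libraries, and Kif11 is highest in both groups, at a mean of 97.8 and 556 CPM.

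The mitotic kinesins kept close to one another. Their log2 fold changes had an SD of 0.24 across the 12 genes. Within mouse 1, 2 and 3 the median log2 difference between the AOA and the vehicle library was 2.20, 2.39 and 2.20, and 12 of 12 mitotic kinesins were higher with AOA in each mouse. Against the median of the 12 in its own library, Kif11 stood 1.56 to 1.72 log2 units higher with vehicle and 1.91 to 2.22 higher with AOA, so that its distance from the other mitotic kinesins was 0.38 larger with AOA. Kif20b went the other way, from between 0.02 and 0.52 above that median with vehicle to between -0.24 and -0.08 with AOA. These relative differences were not tested. Libraries also shifted the mitotic kinesins together. Vehicle replicate 3 was the highest of its group in 11 of 12 mitotic kinesins, and AOA replicate 3, from the same mouse, in 11 of 12. AOA replicate 1 was the lowest of its group in 10 of 12. Without vehicle replicate 3 the median log2 fold change of the 12 was 2.44, and all 12 were still called.

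The other kinesins were next compared with these. Of 22 tested, 11 were called lower, where 26.8% of all tested genes were called lower, and 4 were called higher, and their median log2 fold change was -0.51. The 3 AOA libraries lay below the 3 vehicle libraries in 12 of the 22, a pattern that 31.1% of all tested genes showed, and above them in 4. The median log2 difference within mouse 1, 2 and 3 was -0.75, -0.25 and -0.18, and AOA replicate 1 was the lowest AOA library for 16 of the 22. The row Kif1bp belongs here by its symbol alone, since its product binds kinesins and is not a motor. Without it 3 of 21 other kinesins were higher and 11 lower, with a median of -0.56. Kif1a and Kif17 reached the CPM that the filter asks for in all 3 vehicle libraries but in 0 and 1 AOA libraries, so that they entered the test through the group where they were high. Without these rows 4 of 20 other kinesins were higher and 9 lower, and the median of their log2 fold changes was -0.27. In 10 of these 20 the AOA libraries all lay below the vehicle libraries, and in 4 above them.

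**Figure D3:**
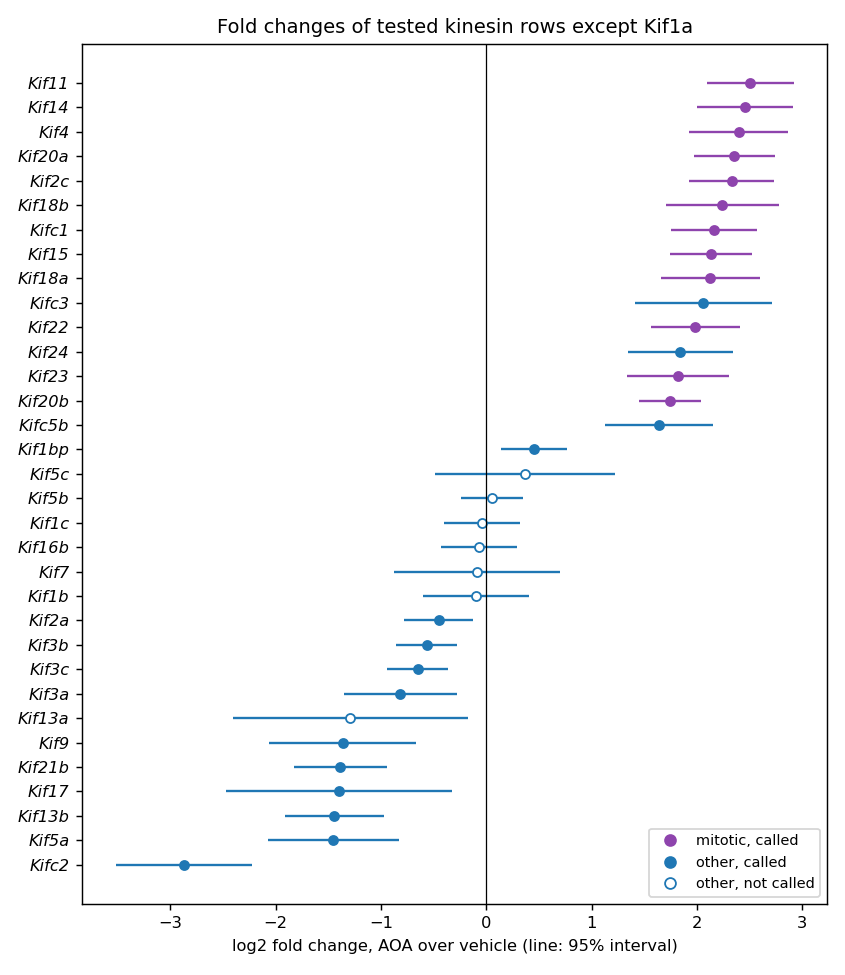
Log2 fold change of AOA over vehicle for 33 tested kinesin rows, ordered by size, with a line for the 95% interval. Mitotic kinesins are purple and other kinesins blue, with filled points for called rows and open points for those not called. The 12 mitotic kinesins lie between 1.74 and 2.51, and Kif1a is left out because its AOA group held 1 count in all. Kif17 is drawn as called, though it reached the low-count filter in the vehicle group alone.

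The kinesin-2 family, which includes the heterotrimeric motor that carries cargo in cilia and in the cytoplasm, was called lower in 3 of 3 members that reached the filter in both groups, where 26.8% of all tested genes were lower. Kif3b, one motor subunit of that complex, measured 60.4, 65.7 and 66.1 CPM with vehicle and 39.2, 44.0 and 46.8 CPM with AOA (log2 fold change -0.56, SE 0.13, adjusted p = 0.00521 by edgeR). Kif3c, an alternative partner subunit, measured 39.8, 38.0 and 36.7 CPM with vehicle and 22.9, 25.7 and 24.3 CPM with AOA (log2 fold change -0.65, SE 0.13, adjusted p = 0.00276). Both pairs of groups were clearly apart. Kif3a, the partner subunit shared by these complexes, measured 15.1, 12.2 and 17.2 CPM with vehicle and 5.98, 9.62 and 9.73 CPM with AOA (log2 fold change -0.81, SE 0.24, adjusted p = 0.0174), and its call was lost without vehicle replicate 1 (adjusted p = 0.0548) or vehicle replicate 3 (0.0786). Kif17, the homodimeric member, had low values of 1.11, 1.58 and 0.869 CPM with vehicle and 0.460, 0.211 and 0.656 CPM with AOA (log2 fold change -1.40, SE 0.48), and since it reached the filter in the vehicle group alone its adjusted p is not given. It was not called with DESeq2 (log2 fold change -1.41), nor without vehicle replicate 1 (-1.42), vehicle replicate 2 (-1.09), AOA replicate 1 (-1.42) or AOA replicate 2 (-1.08). Kifap3, the adaptor subunit of the Kif3 motor, was not called, at 8.003 CPM with vehicle and 10.4 with AOA (log2 fold change 0.37, adjusted p = 0.200).

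Kif21b, a kinesin-4 motor that limits microtubule growth and is known from neurons and lymphocytes, had the largest drop in CPM of all kinesins. It measured 875, 634 and 850 CPM with vehicle and 244, 349 and 311 CPM with AOA, means of 786 ± 133 and 301 ± 53.0 CPM (SD, n = 3), and its log2 fold change was -1.38 (SE 0.19, adjusted p = 0.000443 by edgeR). The highest AOA library held 349 CPM against 634 in the lowest vehicle library. Kif7, the other kinesin-4 row outside the mitotic list and a regulator of Hedgehog signalling, was not called (log2 fold change -0.09), and had a 95% interval from -0.87 to 0.70.

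Kinesin-1, the conventional cargo motor, is made of a Kif5 heavy chain and light chains. Kif5b, the heavy chain that most cell types use, stood at 224, 234.6 and 212 CPM with vehicle and 212, 246 and 237 CPM with AOA, and the groups overlapped (log2 fold change 0.05, 95% interval -0.24 to 0.35, adjusted p = 0.753 by edgeR). The interval leaves out a rise as large as that of any mitotic kinesin. Kif5a, a heavy chain best known from neurons, was much lower in level and fell from 4.92, 6.15 and 4.45 CPM to 1.88, 2.22 and 1.56 CPM (log2 fold change -1.45, SE 0.28, adjusted p = 0.00213). Kif5c was not called, at a log2 fold change of 0.37 with an interval from -0.48 to 1.22. The light chains, which tie the heavy chains to cargo, fell in 4 of 4 cases, where 26.8% of all tested genes were lower, with log2 fold changes of -0.52 for Klc1, -1.24 for Klc2, -1.70 for Klc3 and -2.15 for Klc4.

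The kinesin-3 family moves vesicles and endosomes, and Kif14 of the mitotic list belongs to it by sequence. Of its 6 members outside that list, 2 were called lower and 4 were not called, a share near the 26.8% of all tested genes, and 1 of the 2 was Kif1a. Kif13b, a carrier of membrane scaffold proteins, fell from 42.8, 45.8 and 34.6 CPM to 10.9, 18.0 and 16.4 CPM (log2 fold change -1.44, SE 0.21, adjusted p = 0.000515 by edgeR). Kif1a, a carrier of synaptic vesicle precursors, had 44, 42 and 91 counts with vehicle and 0, 1 and 0 counts with AOA, so that it passed the filter through its vehicle libraries alone. Scaled to library size, the vehicle level was 229 times the AOA level, with an exact 95% interval from 40.5 to 9089 that covers counting error only. This ratio is a description that rests on 1 AOA read and is no test. Since the filter already asked for counts that only the vehicle libraries held, its adjusted p is not given. Kif13a, which moves endosomes, had 3.25, 9.57 and 3.20 CPM with vehicle and 1.33, 2.06 and 3.18 CPM with AOA, so that vehicle replicate 2 stood apart and the groups touched without overlap (log2 fold change -1.29, adjusted p = 0.0520). The same library stood apart in some markers of other cells. Fcer1g was at 53.4 CPM against 2.22 and 5.86 in vehicle replicates 1 and 3. Klrb1c was at 111 CPM against 41.7 and 20.1, and Ncr1 at 37 counts against 0 and 0. Itgam (52.9 CPM against 42.8 and 40.5) and Eomes (194 against 134 and 125) were also highest there. Lyz2 had 5 counts there against 0 and 0. Other members of the myeloid list, Cst3 (46.3 CPM against 52.7 and 49.8) and Cd68 (13.3 against 15.2 and 14.7), were lowest there. The part of such cells in the Kif13a values was not tested. A call was made with mouse as a replicate block (adjusted p = 0.0319), with DESeq2 (0.0257), and without vehicle replicate 1 (0.0426), vehicle replicate 3 (0.0326) or AOA replicate 3 (0.0438). The log2 fold change of Kif13a shrank to -0.53 without vehicle replicate 2 (adjusted p = 0.246) and to -1.02 without AOA replicate 1 (adjusted p = 0.187).

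The remaining kinesin-3 members had overlapping groups. Kif1c, a vesicle motor, stood at 122, 147 and 119 CPM with vehicle and 102, 132 and 144 CPM with AOA (log2 fold change -0.04, 95% interval -0.40 to 0.33). Kif1b, a carrier of mitochondria and synaptic vesicle precursors, stood at 51.9, 57.2 and 47.9 CPM with vehicle and 32.7, 65.2 and 49.0 CPM with AOA (log2 fold change -0.10, interval -0.60 to 0.41). Kif16b, a motor of early endosomes, stood at 38.4, 39.2 and 36.3 CPM with vehicle and 28.9, 38.6 and 41.1 CPM with AOA (log2 fold change -0.07, interval -0.43 to 0.29). AOA replicate 1 was the lowest library for each of these genes.

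The other kinesin-14 rows went in both directions. Kifc2 fell from 26.4, 13.8 and 15.7 CPM to 2.67, 2.22 and 2.72 CPM, a log2 fold change of -2.87 (SE 0.29, adjusted p = 7.70e-05 by edgeR) that was larger in size than that of any mitotic kinesin. Kifc3, a minus-end-directed motor of epithelial junctions and the Golgi apparatus, rose from 1.03, 0.951 and 1.09 CPM to 3.63, 4.86 and 4.39 CPM (log2 fold change 2.06, SE 0.29, adjusted p = 0.000437). Kifc5b rose from 8.89, 5.58 and 9.93 CPM to 26.8, 22.4 and 26.98 CPM (log2 fold change 1.64, SE 0.23, adjusted p = 0.000399). Kifc5b (chr17:26917091-26932579) is a near-copy of Kifc1 (chr17:33875664-33890633), and the values of both are uncertain. The study's methods say that uniquely mapped reads were counted, and how many reads from shared stretches were left out for that reason is not known from the counts. Of the 75-base words in the Kifc1 transcript, 33.5% also occurred in Kifc5b, and 29.9% of those of Kifc5b occurred in Kifc1, while the remaining kinesins shared at most 0.486% of their words with another gene. Their promoter windows were identical at 239 of 272 aligned bases (87.9%). With the counts of both summed into a single row, 12 of 12 mitotic kinesins were higher and 3 other kinesins were higher.

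The kinesin-13 row outside the mitotic list and the rest of the family made up the remaining rows. Kif24, a centriolar kinesin-13 relative that restrains cilium formation, rose from 4.84, 5.01 and 7.44 CPM to 17.8, 21.8 and 22.8 CPM (log2 fold change 1.84, SE 0.22, adjusted p = 0.000193 by edgeR), a change within the range of the mitotic kinesins. Kif2a, a kinesin-13 that takes microtubules apart both in neurons and at spindle poles, measured 138, 119 and 149 CPM with vehicle and 84.9, 108 and 105 CPM with AOA (log2 fold change -0.45, SE 0.15, adjusted p = 0.0274). Its call was lost without vehicle replicate 1 (adjusted p = 0.0958), vehicle replicate 3 (0.136), AOA replicate 1 (0.0539) or AOA replicate 3 (0.0591). Kif9, known from cilia and sperm, fell from 2.70, 2.60 and 3.85 CPM to 1.33, 1.11 and 1.11 CPM (log2 fold change -1.36, SE 0.31, adjusted p = 0.00518). Kif1bp rose from 19.8, 21.6 and 23.3 CPM to 29.97, 27.9 and 30.8 CPM (log2 fold change 0.45, SE 0.14, adjusted p = 0.0222), a call that was lost without vehicle replicate 1 (adjusted p = 0.0724) or AOA replicate 3 (0.0870). Kif19a, a kinesin-8 of cilia, did not pass the filter, with 6, 8 and 19 counts with vehicle and 4, 4 and 5 counts with AOA. With no low-count filter it was called lower by edgeR (log2 fold change -1.61, adjusted p = 0.0339), and by DESeq2 it was not called (adjusted p = 0.110).

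**Figure D4:**
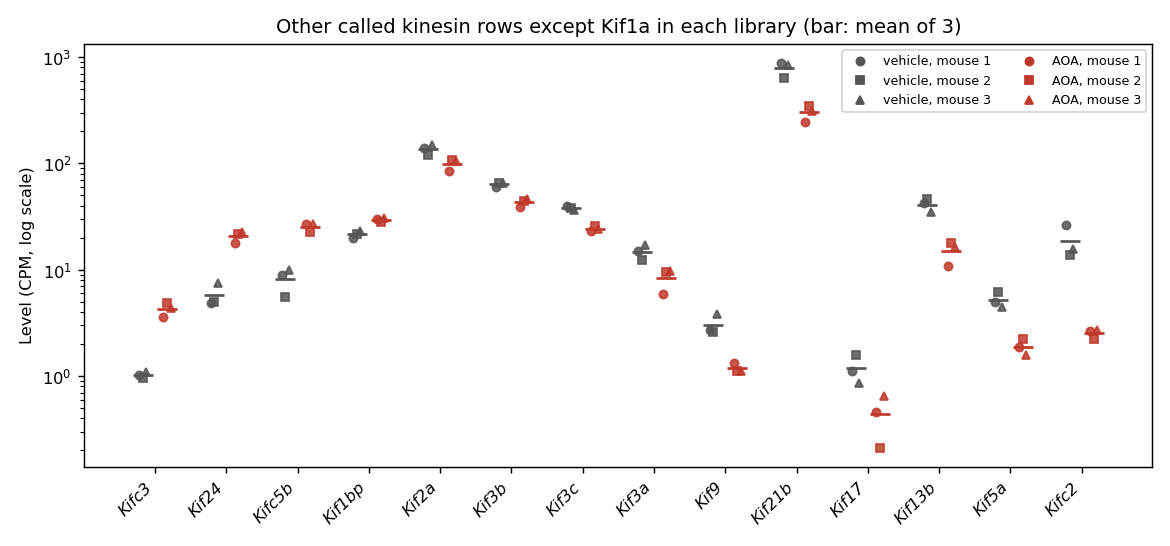
Level in CPM, on a log scale, of 14 of the 15 called rows outside the mitotic list in each library, with vehicle in grey, AOA in red, a marker shape for each mouse and a bar at the mean of the 3 libraries. The 4 rows on the left are higher with AOA and the 10 on the right lower, and Kif1a is left out because it has 0 counts in a pair of AOA libraries. Kif17 is among the lower rows, though it reached the low-count filter in the vehicle group alone.

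Set per length, the make-up of the kinesin RNA was different in the 2 groups. Mitotic kinesins took 30.9%, 30.8% and 36.7% of the summed kinesin RPKM in vehicle replicates 1 to 3 and 76.6%, 73.9% and 76.99% in AOA replicates 1 to 3, which is 32.8% ± 3.36 and 75.9% ± 1.67 (SD, n = 3). The summed mitotic level was 116 ± 22.2 RPKM with vehicle and 534 ± 59.5 RPKM with AOA, a ratio of 4.59, while the summed level of the other kinesins was 237 ± 15.6 and 170 ± 18.9 RPKM, a ratio of 0.717. Most of the fall in the sum of the other kinesins was that of Kif21b, from 86.2 ± 14.6 to 33.0 ± 5.82 RPKM. The level of all kinesins together was 353 ± 34.3 RPKM with vehicle and 704 ± 73.4 RPKM with AOA. Over the 6 libraries the groups did not overlap in any of these sums.

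The order of the levels changed accordingly. With vehicle, Kif21b led at 86.2 ± 14.6 RPKM, followed by Kif5b at 37.0 ± 1.90, Kif2a at 32.2 ± 3.51, Kif22 at 20.5 ± 4.35 and Kif11 at 20.3 ± 4.18 RPKM, and Kif22 and Kif11 did not differ beyond their spread. With AOA, Kif11 led at 115 ± 6.87 RPKM, followed by Kif22 at 81.1 ± 11.6, Kif20a at 56.6 ± 5.56, Kif23 at 48.2 ± 6.91 and Kifc1 at 43.4 ± 8.64 RPKM, and Kif23 and Kifc1 differed by less than the SD of either. Kif21b was 10th with AOA, at 33.0 ± 5.82 RPKM. Kif11 made up 5.70% ± 0.642 of kinesin RPKM with vehicle and 16.5% ± 1.64 with AOA, and Kif21b 24.3% ± 2.37 and 4.69% ± 0.687.

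**Figure D5:**
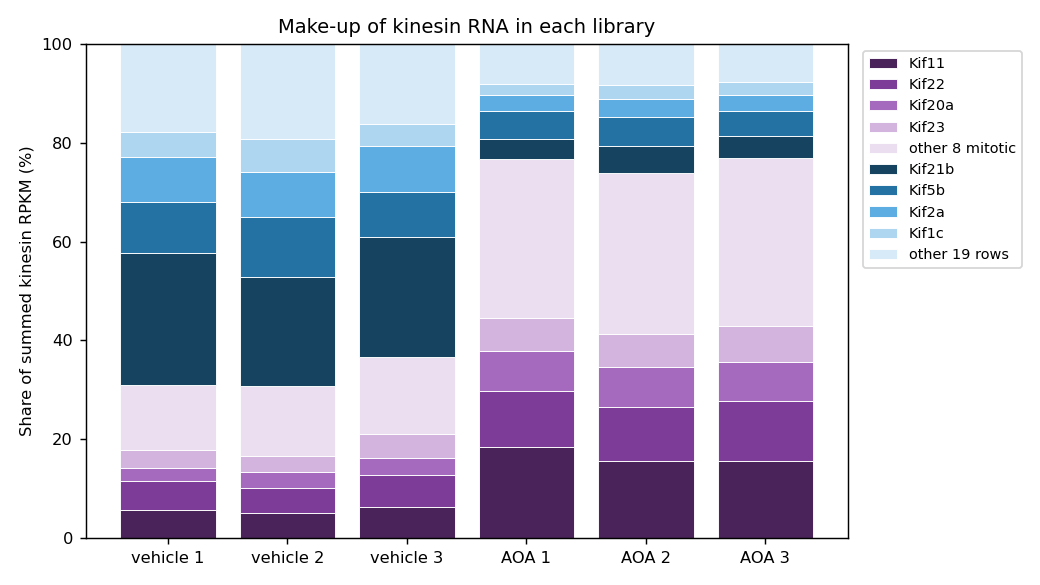
Share in percent of the summed kinesin RPKM in each library, with mitotic kinesins in purple and other kinesins in blue. The 4 mitotic and 4 other rows that are named are those with high levels, and the rest of each class is pooled. The purple part ends at 30.8% to 36.7% in the vehicle libraries and at 73.9% to 76.99% in the AOA libraries.

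Genes that work with these motors were read from 3 lists. Of 23 spindle and cytokinesis partners of the mitotic kinesins, 22 were called higher, against 26.2% of all tested genes, and 0 lower, and their median log2 fold change was 2.15. The largest were Birc5 (3.03), a chromosomal passenger subunit, Nusap1 (2.89), a microtubule bundler, the checkpoint gene Mad2l1 (2.56) and Tpx2 (2.51), a spindle assembly factor. Cenpe, the kinesin-7 motor that brings chromosomes to the spindle equator and whose symbol lies outside the Kif rows, rose from 59.5 to 182 CPM (log2 fold change 1.61, adjusted p = 0.000643 by edgeR). Racgap1, the partner of Kif23 in centralspindlin, had a log2 fold change of 1.80, close to the 1.82 of Kif23. Numa1, a spindle pole protein with a role in interphase nuclei, was not called (-0.29, adjusted p = 0.278).

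Light chains and cargo adaptors, which hold vesicles and organelles to the motors, formed the second list. Of 16 matched by symbol, out of 21 listed, 10 were called lower and 3 higher, and the median log2 fold change was -0.53, where 26.8% of all tested genes were lower and 26.2% higher. The list also names Kifbp, which is in the table as Kif1bp and was counted among the other kinesins instead. It was called higher (0.45). Beside the light chains the lowest was Mapk8ip1 (-2.35), a scaffold that binds kinesin-1. The 3 of the 16 that rose were Arl8b (0.68), a lysosomal GTPase that recruits kinesins, and Rhot1 (0.57) and Trak2 (0.48), which link motors to mitochondria. Cytoplasmic dynein walks in the opposite direction, towards the minus end, with dynactin as its activator. Of 21 tested dynein and dynactin genes 3 were higher, 2 lower and 16 not called, with a median of 0.11, and both shares of calls were below those 26.2% and 26.8% of all tested genes. The 3 that rose were the light chains Dynll1 (1.49) and Dynll2 (0.63) and the dynein regulator Nde1 (0.78), and those that fell were Dctn2 (-0.68) and Dctn4 (-0.60), subunits of dynactin. The motor subunit Dync1h1 was not called (-0.29, adjusted p = 0.318 by edgeR). Without vehicle replicate 1 the number of lower dynein and dynactin genes was 1, and without AOA replicate 1 it was 4. With mouse as a replicate block it was 3, with Dynlt3 added (adjusted p = 0.0155 by edgeR, and 0.0655 without the block).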

How the data were processed

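RNA from 6 cultures of mouse CD8+ T cells was measured, 3 with vehicle and 3 with AOA, grouped by their labels. The authors made stranded messenger RNA libraries, sequenced them as paired ends and aligned them with STAR at default settings. The submitters' processing notes also name bcl2fastq, featureCounts, DESeq2 and the mm10 build. The authors deposited raw counts per gene with a gene length. The authors counted uniquely mapped reads. No version of these tools, annotation or gene filter is given in the sources used here, and 0 columns had no sample.

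The counts went through edgeR 4.0.16 (R 4.3.3). Genes that passed filterByExpr (minimum count 10) were scaled by TMM, and groups were compared with the robust quasi-likelihood fit and group as its sole term. A p under 0.05 after Benjamini-Hochberg adjustment was a call. CPM and RPKM were computed from TMM library sizes and the deposited lengths, and log2 levels of single libraries used a prior count of 2. Nothing in the labels says that a library was repeated, and each library was counted as a separate sample, since replicates differed with a chi-square per gene from 10.0 to 70.9. Depth sets the precision of low rows such as Kif17 and Kif1a.

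The donor mouse in the labels pairs the samples. Deviations from the group means of libraries of the same mouse correlated across genes with r of 0.0868, 0.189 and 0.194 (genes are not independent replicates), and mouse as a block was fitted as an alternative. Others were voom of limma 3.58.1, DESeq2 1.42.0, median-of-ratios factors, total counts, no filter, at least 10 CPM in 3 libraries, each library left out and a minimum absolute log2 fold change of 1. Leaving out Kif1bp, leaving out Kif1a with Kif17 and summing Kifc1 with Kifc5b were added after seeing the data. The members and all gene lists were chosen with earlier results of these data known. Named were all kinesins and up to 4 called genes per direction of each list, plus Cenpe, Klc1, Klc2, Kifap3, Racgap1, Numa1 and Dync1h1, of which Racgap1, Numa1 and Dync1h1 were chosen after their values were seen. Promoters and gene positions came from RefSeq (GRCm38.p6) and transcripts for the word search from GENCODE. The steps were tested on simulated counts.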

Additional observations from a re-analysis of the deposited data

How the results depend on the processing

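No called kinesin changed sign under any alternative, while Kif1b, Kif1c, Kif5c, Kif7 and Kif16b, which were never called, took either sign. The calls lost or gained are given with Kif1bp, Kif2a, Kif3a, Kif13a, Kif17 and Kif19a. All 12 mitotic kinesins were called higher in every alternative run. With a minimum absolute log2 fold change of 1, 7 other kinesins were lower, Kif1a and Kif17 among them. At that cut 0 adaptors were higher and 6 lower, and 1 dynein or dynactin gene was higher and 0 lower. The share of all tested genes beyond that cut was not counted, so these numbers have no share to be read against. With at least 10 CPM in 3 libraries, 7 other kinesins were lower, since fewer were tested. In that run 2380 of all 8876 tested genes were lower. Computed from CPM without gene length, the mitotic share was 21.2% with vehicle and 66.3% with AOA. Leaving out a library moved the median of the mitotic kinesins between 2.15 and 2.44 (2.44 without vehicle replicate 3 and 2.34 without AOA replicate 1) and the number of lower dynein and dynactin genes between 1 and 4, while 9 to 11 other kinesins were lower and 3 to 4 higher. Fitted with mouse as a replicate block, the comparison called 6292 genes against 6233 without it, and 6007 were shared. Among kinesins the block changed the call of Kif13a alone (adjusted p = 0.0319 by edgeR). No vehicle or AOA library can be set against a replicate culture of the same mouse, and a low count limits Kif1a, Kif17 and Kif19a.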
